A study of Mus musculus with 12 samples.

Results

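Fibroblasts of the mammary gland lay down the collagen-rich interstitial matrix through which the ductal tree grows. A set of 35 genes of this matrix and of the cells that make it was examined in 2 epithelial structures of the mouse gland, terminal end buds and mature ducts. The set was fixed by name: 8 collagen chains, 4 small leucine-rich proteoglycans, 6 matricellular proteins, 7 other matrix glycoproteins, 2 genes of collagen folding and cross-linking, and 8 cell markers. The platform annotation named 1 probe for each of 33 of these genes, out of 12913 genes read on the array. Fbn1 and Pi16 were not analysed here.

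Every array compared epithelial RNA, labelled with Cy5, with RNA of distal stroma, labelled with Cy3. Distal stroma is stromal tissue of the gland into which no epithelium has yet grown. On 6 arrays the epithelial RNA came from terminal end buds, the bulbous growing tips, and on the other 6 from mature ducts. All tissues were microdissected from the glands of mice aged 5 weeks that carried a B-actin-GFP reporter, used to see the tree during dissection. The tissues were dissected, not sorted, so each sample holds whatever cells came with the structure. Each value is therefore a log2 ratio of a dissected structure over distal stroma, not a level, and a value of 0 means a signal equal to that of distal stroma. No label ties an array to an animal or says how the stromal RNA was pooled. The p-values therefore describe array-to-array spread, part or all of which may be technical.

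As background, collagen I, III and V chains assemble into the fibrils of interstitial matrix, and collagen VI forms beaded filaments beside them. Small leucine-rich proteoglycans such as decorin bind fibrils and limit their thickness, fibronectin is laid down early and guides fibril assembly, and lysyl oxidase cross-links the finished fibres. Matricellular proteins such as tenascin-C and the thrombospondins act on cells and on growth factors more than they bear load. Terminal end buds are enclosed by a sleeve of stroma at their neck, and mature ducts by a fibrous sheath.

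Part of the set had higher ratios than distal stroma in both structures, and another part was lower than stroma in terminal end buds. Relative to stroma, 18 of the 33 genes were higher in terminal end buds, where 23.2% of all 17589 probes were called higher, and 8 were lower, where 20.4% of all probes were, so 26 of 33 were called against 43.6% of all probes. In ducts 18 were higher, against 16% of all probes, and with no lower call these were all the calls, against 28.2% of all probes called either way. None was called lower in ducts by limma (1 at an unadjusted p of under 0.05, Dpt), against 12.2% of all probes. Calls are limma tests at a Benjamini-Hochberg adjusted p of 0.05 over all probes. The share of members called lower in terminal end buds was close to that of all probes. The members' median ratio was 0.45 in terminal end buds and 0.39 in ducts, where the median of all probes was 0.015 in each. In all, 12 genes were higher in both structures, and 6 were higher in terminal end buds with no call in ducts. A further 4 were higher in ducts with no call in terminal end buds, and 3 had no call in either. Of the 8 lower in terminal end buds, 6 had no call in ducts and 2 were higher there. This last pattern was that of 0.836% of all probes, and the shares of all probes with the other pairs of calls were not computed. Distal stroma enters as 1 control, without a spread of its own in the test. Since no dye swap is recorded, a probe's dye effect stays in its ratio to stroma.

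**Figure D1:**
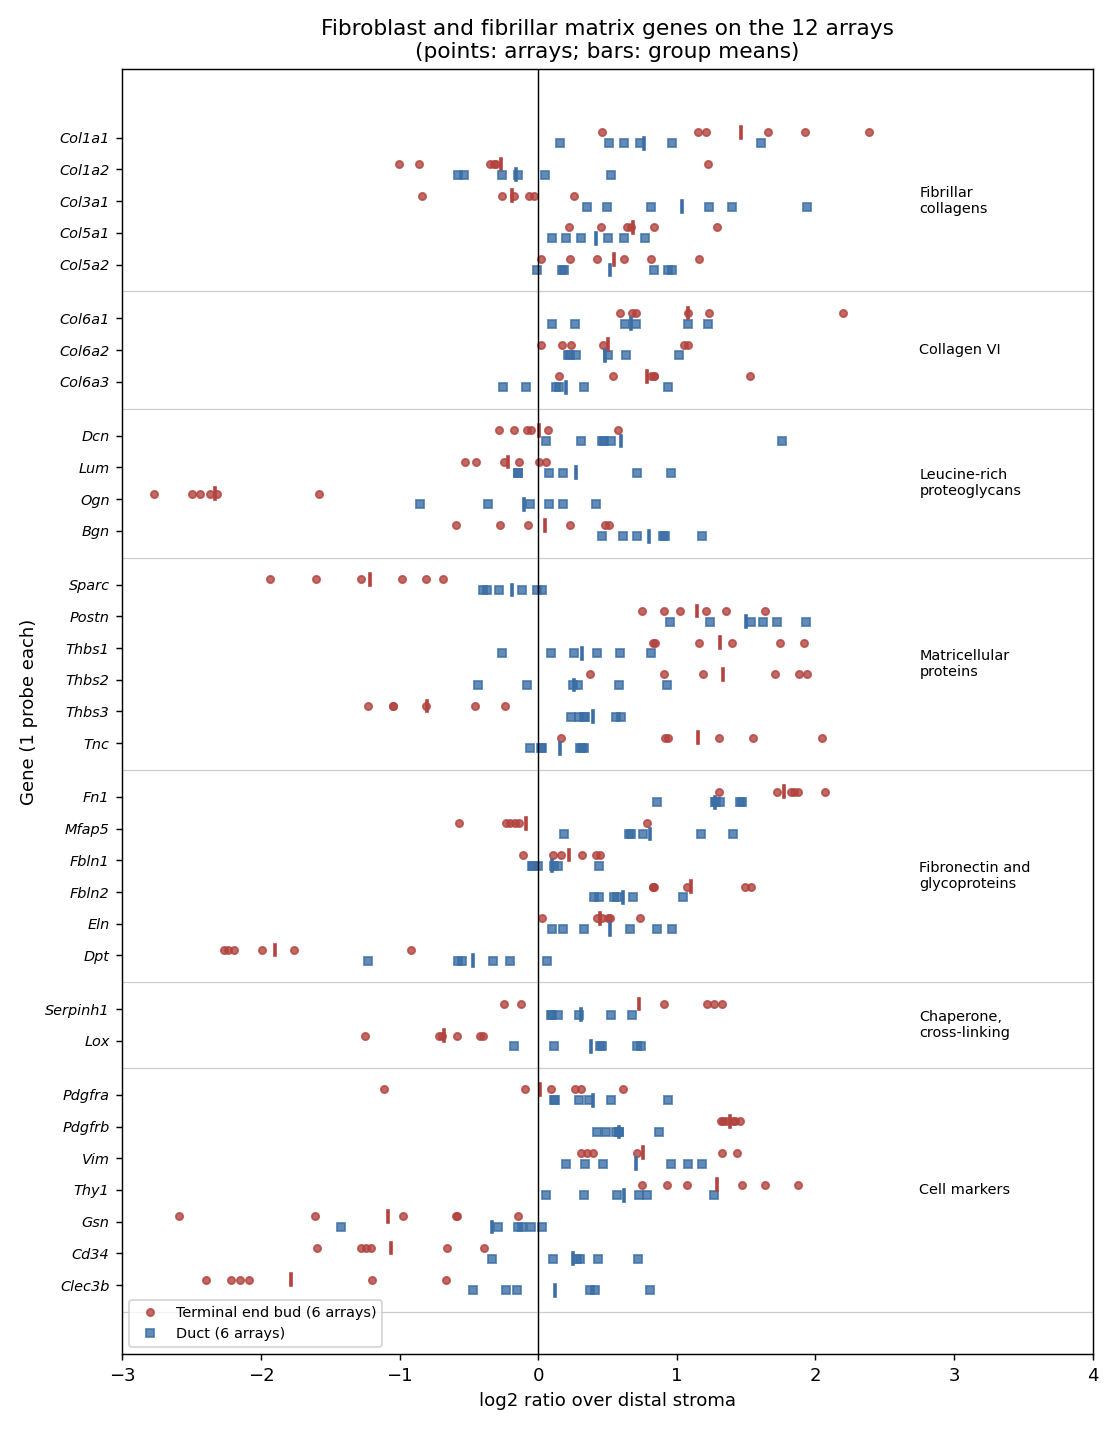
Log2 ratio over distal stroma (x axis) of the 33 measured genes (rows, grouped by role) on each of the 6 terminal end bud arrays (circles) and 6 duct arrays (squares), with vertical bars at the group means. Ogn, Dpt and Clec3b lie far to the left on terminal end bud arrays and nearer to 0 on duct arrays, while Fn1 and Postn lie to the right on all 12 arrays.

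The fibrillar collagens were mostly higher than in stroma in both structures, but not chain by chain. Col1a1, the alpha 1 chain of collagen I, had ratios from 0.46 to 2.39 with a median of 1.43 on terminal end bud arrays, and from 0.16 to 1.60 with a median of 0.68 on duct arrays. All 12 arrays were above 0 and the groups overlapped. The mean was 1.47 ± 0.67 (SD, n = 6) in terminal end buds (adjusted p = 4.12e-05) and 0.77 ± 0.49 (SD, n = 6) in ducts (adjusted p = 0.013) by limma. The difference of 0.70 (SE 0.29, adjusted p = 0.127) did not pass. It passed in 3 of 24 alternatives, which were neighbouring array numbers as a block, without terminal end bud replicate 3 and without duct replicate 2.

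Col1a2, which encodes the chain that pairs with Col1a1 in the same collagen I trimer, had a different profile. Its ratios ran from -1.003 to 1.22 with a median of -0.33 in terminal end buds, and from -0.575 to 0.53 with a median of -0.20 in ducts. Arrays lay on both sides of 0 in each group, and neither mean passed (adjusted p = 0.365 in terminal end buds and 0.655 in ducts by limma). The log2 ratio of the Col1a1 probe exceeded that of the Col1a2 probe on all 12 arrays, by 0.42 to 3.25. Each chain was read by a single probe, so how far probe behaviour enters this gap was not tested. Without terminal end bud replicate 2, whose value of 1.22 was the highest, Col1a2 passed as lower in terminal end buds, with a mean of -0.57 at the low end of the range over arrays left out.

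Col3a1, the chain of the collagen III homotrimer that is abundant in young and compliant matrix, separated the structures. Its ratio ran from -0.84 to 0.26 with a median of -0.12 on terminal end bud arrays, and from 0.35 to 1.94 with a median of 1.02 on duct arrays. The groups did not overlap. Ducts were above stroma with a mean of 1.04 ± 0.60 (SD, n = 6, adjusted p = 0.000508), terminal end buds had a mean of -0.19 ± 0.37 (SD, n = 6) with no call, and the difference of -1.22 (SE 0.25) passed with adjusted p = 0.00328 by limma. It stayed past the threshold under all 24 alternatives for single genes.

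The minor fibrillar chains of collagen V, which nucleate collagen I fibrils, were higher in both structures by similar amounts. Col5a1 had a mean ratio of 0.69 ± 0.36 in terminal end buds and 0.42 ± 0.26 in ducts (SD, n = 6 each), and Col5a2 one of 0.54 ± 0.41 in terminal end buds and 0.51 ± 0.44 in ducts (SD, n = 6 each). All 4 means passed limma, with adjusted p from 0.000202 for Col5a1 in terminal end buds to 0.0215 for Col5a2 in ducts. The differences between structures were 0.27 (SE 0.16) for Col5a1 and 0.030 (SE 0.22) for Col5a2, and neither passed.

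All 3 collagen VI chains passed as higher in terminal end buds, and 2 of them in ducts. Col6a1 ran from 0.59 to 2.20 with a median of 0.89 in terminal end buds and from 0.10 to 1.22 with a median of 0.67 in ducts. Col6a2 had means of 0.51 ± 0.46 in terminal end buds and 0.48 ± 0.31 in ducts (SD, n = 6 each), which differed by 0.027 (SE 0.20). Col6a3, the large chain that joins the other two in each filament, averaged 0.78 ± 0.45 in terminal end buds and 0.20 ± 0.41 in ducts (SD, n = 6 each). Its mean passed in terminal end buds (limma, adjusted p = 0.000792) and missed in ducts (adjusted p = 0.38), while the difference of 0.58 (SE 0.22) missed the threshold with adjusted p = 0.0846. The difference passed in 6 of 24 alternatives, among them neighbouring array numbers as a block (limma, adjusted p = 0.013).

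The duct calls over the 33 genes, those of several collagens among them, leaned on a few arrays. Without duct replicate 2, which had the highest duct ratio for 24 of the 33 genes, 12 of the 18 higher calls in ducts remained, and Col1a1, Col5a1, Col5a2, Col6a1, Col6a2 and Lox lost theirs. Without duct replicate 5, 13 remained. Arrays numbered 196 and above gave 11 higher calls in ducts, all among the 18, and arrays up to 193 gave 19.

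In terminal end buds 3 of the 4 small leucine-rich proteoglycans had no call against stroma and Ogn was far below it, while in ducts Bgn and Dcn were higher and Ogn and Lum had no call. Ogn encodes osteoglycin, a leucine-rich protein of connective tissue that takes part in collagen fibril formation. It had ratios from -2.77 to -1.58 with a median of -2.41 on terminal end bud arrays, and from -0.85 to 0.42 with a median of 0.0105 on duct arrays. The groups were far apart with no overlap. With a mean of -2.33 ± 0.40 (SD, n = 6) in terminal end buds, Ogn was the lowest of the 33 genes there, which is 5.02-fold below stroma if the logarithm has base 2, while ducts averaged -0.099 ± 0.45 (SD, n = 6). The difference of -2.23 (SE 0.22, adjusted p = 1.4e-05 by limma) was the largest among the members.

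Dcn, which encodes decorin, averaged 0.0088 ± 0.30 in terminal end buds and 0.60 ± 0.59 in ducts (SD, n = 6 each), and the duct mean passed (limma, adjusted p = 0.0155). Duct replicate 2, at 1.76, was far above the other duct arrays, and the duct mean without it was 0.37. Bgn, the gene of biglycan, averaged 0.046 ± 0.44 in terminal end buds and 0.80 ± 0.26 in ducts (SD, n = 6 each), so that only ducts passed against stroma (adjusted p = 0.00038), and the difference of -0.75 (SE 0.18) passed as well (adjusted p = 0.0103). Lum, the gene of lumican, averaged -0.22 ± 0.24 in terminal end buds and 0.27 ± 0.46 in ducts (SD, n = 6 each) with no call in either structure. For all 4 proteoglycans the mean was lower in terminal end buds than in ducts, and 2 of the 4 differences passed. With neighbouring array numbers as a block, those of Dcn (adjusted p = 0.00846) and Lum (adjusted p = 0.0307) passed too by limma. The difference of Dcn passed in 3 of 24 alternatives and that of Lum in 1.

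Of the 6 matricellular genes, 4 were higher and 2 lower than stroma in terminal end buds, and 2 were higher in ducts. Thbs1 and Thbs2 encode the trimeric thrombospondins, known as inhibitors of angiogenesis, and Thbs3 encodes a pentameric member of the same family. Thbs1 ran from 0.83 to 1.92 with a median of 1.28 on terminal end bud arrays, and from -0.26 to 0.81 with a median of 0.34 on duct arrays, without overlap. Thbs2 ran from 0.37 to 1.94 with a median of 1.45 on terminal end bud arrays, and from -0.43 to 0.93 with a median of 0.27 on duct arrays, with overlap. Both were higher than stroma in terminal end buds, by 1.31 (SE 0.15, adjusted p = 5.19e-06) and 1.33 (SE 0.20, adjusted p = 5.89e-05), and higher than in ducts, by 0.996 (SE 0.21, adjusted p = 0.00444) and 1.08 (SE 0.28, adjusted p = 0.0138) by limma.

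Thbs3 went the other way. It ran from -1.23 to -0.24 with a median of -0.93 on terminal end bud arrays, and from 0.24 to 0.60 with a median of 0.33 on duct arrays. Every terminal end bud array lay below 0 and every duct array above it. Thbs3 was lower than stroma in terminal end buds by -0.81 (SE 0.11, adjusted p = 2.45e-05) and higher in ducts by 0.39 (SE 0.11, adjusted p = 0.0141), and the difference of -1.20 (SE 0.15) had adjusted p = 0.000118 by limma. Thbs3 and Lox were the members called in opposite directions in the structures, lower in terminal end buds and higher in ducts, a pattern of 0.836% of all probes, where 0.989% had opposite calls in either order. The duct call of Thbs3 was lost without duct replicate 5 (adjusted p = 0.0516), and the terminal end bud call on arrays numbered up to 193 (adjusted p = 0.0561).

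**Figure D2:**
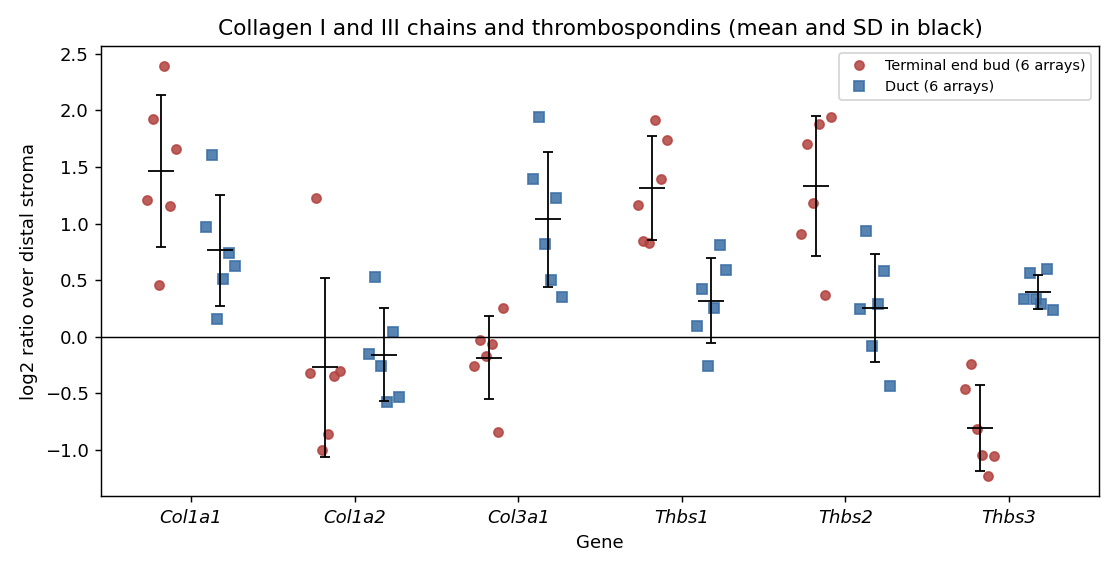
Log2 ratio over distal stroma (y axis) of collagen I and III chains and the 3 thrombospondins measured, on 6 terminal end bud arrays (circles) and 6 duct arrays (squares), with the mean and SD in black. Thbs1 and Thbs2 are higher on terminal end bud arrays and Thbs3 is lower on them, and Col3a1 is above 0 on all duct arrays.

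Because the family members Thbs2 and Thbs3 moved in opposite directions, and Ogn and Dpt were the matrix genes with the lowest terminal end bud ratios, the 250 bases before the annotated start of each are shown. They are RefSeq sequences of build GRCm38.p6. Entries on a single chromosome were left out for the 33 genes, and 21 of the 33 had an entry that was used. Thbs2 lies at chr17:14694263-14694512 on the minus strand, Thbs3 at chr3:89214930-89215179 on the plus strand, Ogn at chr13:49607765-49608014 on the plus strand, and Dpt at chr1:164796413-164796662 on the plus strand, each written 5′ to 3′ in the direction of transcription with its last base next to the start. Capitals mark matches on either strand to the TATA box letters TATAAA, the CCAAT box, the GC box letters GGGCGG and the AP-1 letters TGANTCA, and the CArG box was searched as well.
Thbs2: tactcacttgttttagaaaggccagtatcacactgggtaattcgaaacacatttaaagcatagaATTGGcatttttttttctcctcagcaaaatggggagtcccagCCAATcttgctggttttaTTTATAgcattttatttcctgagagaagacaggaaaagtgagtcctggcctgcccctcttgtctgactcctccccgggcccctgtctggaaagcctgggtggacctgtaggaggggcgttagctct
Thbs3: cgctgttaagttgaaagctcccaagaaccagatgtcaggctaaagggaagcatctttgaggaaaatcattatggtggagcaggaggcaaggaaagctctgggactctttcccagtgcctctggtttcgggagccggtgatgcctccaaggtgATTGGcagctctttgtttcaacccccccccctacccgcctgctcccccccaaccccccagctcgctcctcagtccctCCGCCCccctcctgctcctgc
Ogn: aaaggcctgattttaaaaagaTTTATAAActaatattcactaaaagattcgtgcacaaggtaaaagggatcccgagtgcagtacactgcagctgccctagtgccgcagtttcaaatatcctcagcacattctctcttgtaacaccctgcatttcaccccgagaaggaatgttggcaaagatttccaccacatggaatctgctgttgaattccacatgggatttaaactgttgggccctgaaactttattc
Dpt: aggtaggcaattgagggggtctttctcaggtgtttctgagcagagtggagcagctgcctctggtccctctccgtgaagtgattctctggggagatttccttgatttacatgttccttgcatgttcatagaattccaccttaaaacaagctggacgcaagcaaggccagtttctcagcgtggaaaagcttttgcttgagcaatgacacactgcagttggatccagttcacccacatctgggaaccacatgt
The window of Thbs2 held TATAAA starting 126 bases before the start and CCAAT at 186 and 144 bases, and that of Thbs3 held CCAAT at 98 and GGGCGG at 21 bases. The Ogn window held 2 overlapping TATAAA matches at 229 and 227 bases, and the Dpt window held none of the 5 motifs. Over the first listed start of the 21 genes, TATAAA was found in 5, CCAAT in 4, GGGCGG in 9, TGANTCA in 1 (Col6a1) and the CArG box in 0. Among all 32851 windows of the same length, with no chromosome left out, these motifs were in 12.4%, 33.8%, 32.7%, 6.7% and 1.5%. A match is a run of letters that was not tested for function, and no match says only that the letters are not in this window.

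Tenascin-C, encoded by Tnc, is a matricellular protein of remodelling mesenchyme that appears around growing epithelial buds. Tnc ran from 0.17 to 2.05 with a median of 1.12 on terminal end bud arrays, and from -0.061 to 0.33 with a median of 0.17 on duct arrays. Terminal end bud replicate 5 was the array that overlapped with ducts. The mean was higher than stroma in terminal end buds, by 1.15 (SE 0.17, adjusted p = 5.24e-05), had no call in ducts at 0.16 (SE 0.17), and differed by 0.996 (SE 0.24, adjusted p = 0.00868) by limma.

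Postn, the gene of periostin, which binds collagen and promotes its cross-linking, was higher in both structures on all 12 arrays. It averaged 1.15 ± 0.32 in terminal end buds and 1.50 ± 0.35 in ducts (SD, n = 6 each), and the difference of -0.35 (SE 0.17, adjusted p = 0.201 by limma) did not pass. Postn had the highest duct ratio of the 33 genes. Sparc, whose product osteonectin binds collagen and procollagen, was lower than stroma in terminal end buds. It ran from -1.94 to -0.69 with a median of -1.13 on terminal end bud arrays, and from -0.40 to 0.028 with a median of -0.20 on duct arrays, without overlap, and the difference of -1.03 (SE 0.19) had adjusted p = 0.00157 by limma.

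Fibronectin led the other matrix glycoproteins. Fn1 ran from 1.30 to 2.07 with a median of 1.83 on terminal end bud arrays, and from 0.85 to 1.47 with a median of 1.30 on duct arrays. All 12 arrays were well above 0, and the groups overlapped. Its mean of 1.77 ± 0.26 in terminal end buds was the highest of the 33 genes there, and it was 1.28 ± 0.22 in ducts (SD, n = 6 each), with adjusted p = 3.04e-09 and 2.96e-07 by limma. The difference of 0.498 (SE 0.13) passed with adjusted p = 0.0151, and lost the call in 5 of 24 alternatives.

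Fbln2, the gene of fibulin-2, which bridges fibronectin, elastic fibres and basement membranes, was also higher in both structures, by 1.10 ± 0.33 in terminal end buds and 0.61 ± 0.23 in ducts (SD, n = 6 each). Its difference of 0.485 (SE 0.15, adjusted p = 0.0382 by limma) was near the threshold and passed in 12 of 24 alternatives. Eln, the gene of tropoelastin, was higher by 0.45 ± 0.23 in terminal end buds and by 0.52 ± 0.36 in ducts (SD, n = 6 each). Fbln1, the gene of fibulin-1, had a mean of 0.22 in terminal end buds that passed narrowly (SE 0.079, adjusted p = 0.033 by limma) and passed in 16 of 25 alternatives, and a mean of 0.10 (SE 0.079) in ducts. Mfap5, a microfibril-associated glycoprotein of elastic fibres, averaged -0.086 ± 0.46 in terminal end buds and 0.81 ± 0.43 in ducts (SD, n = 6 each). Only the duct mean of Mfap5 passed against stroma (adjusted p = 0.00154), and the difference of -0.90 (SE 0.22) passed as well (adjusted p = 0.0117).

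Dermatopontin, encoded by Dpt, binds decorin and fibronectin and speeds collagen fibril assembly. Dpt ran from -2.27 to -0.92 with a median of -2.09 on terminal end bud arrays, and from -1.23 to 0.063 with a median of -0.44 on duct arrays. Terminal end bud replicate 2 and duct replicate 6 were the arrays that overlapped. It was lower than stroma in terminal end buds by -1.90 (SE 0.17, adjusted p = 5.01e-07) and lower than in ducts by -1.43 (SE 0.24, adjusted p = 0.00091) by limma. The duct mean of -0.47 (SE 0.17, adjusted p = 0.0541) missed narrowly and passed in 10 of 25 alternatives.

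The 2 genes of collagen folding and cross-linking went in different directions in terminal end buds. Serpinh1 encodes Hsp47, the collagen chaperone of the endoplasmic reticulum. It averaged 0.72 ± 0.72 in terminal end buds (adjusted p = 0.00635 by limma), where 4 arrays lay between 0.905 and 1.33 and replicates 3 and 5 at -0.25 and -0.12, and 0.31 ± 0.25 in ducts with no call (SD, n = 6 each). Lox, the gene of lysyl oxidase, ran from -1.25 to -0.40 with a median of -0.64 on terminal end bud arrays, and from -0.17 to 0.74 with a median of 0.45 on duct arrays, without overlap. It was lower than stroma in terminal end buds by -0.68 (SE 0.12, adjusted p = 0.000362) and higher in ducts by 0.38 (SE 0.12, adjusted p = 0.0301), and the difference of -1.06 (SE 0.17) had adjusted p = 0.000687 by limma. The duct call of Lox was lost without duct replicate 1, 2, 4 or 5 (adjusted p up to 0.104), on arrays from 196 on (adjusted p = 0.271) and without arrays 192 and 193 (adjusted p = 0.118).

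The cell markers did not move as 1 group. Pdgfrb, a growth factor receptor of fibroblasts and pericytes, ran from 1.32 to 1.46 with a median of 1.38 on terminal end bud arrays, and from 0.43 to 0.87 with a median of 0.57 on duct arrays, without overlap. Its SD of 0.053 over terminal end bud arrays was the smallest of the 33 genes, whose median SD was 0.45 there and 0.38 in ducts. Pdgfrb was higher than stroma in both structures, by 1.38 (SE 0.056, adjusted p = 4.05e-10) and 0.59 (SE 0.056, adjusted p = 3.96e-06), and the difference of 0.79 (SE 0.079) had adjusted p = 1.71e-05 by limma. Pdgfra, the related receptor that marks interstitial fibroblasts more narrowly, averaged 0.012 ± 0.60 in terminal end buds and 0.39 ± 0.31 in ducts (SD, n = 6 each) with no call.

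Thy1, a surface glycoprotein of fibroblasts, averaged 1.29 ± 0.44 in terminal end buds and 0.62 ± 0.42 in ducts (SD, n = 6 each), and both passed against stroma. Its difference of 0.67 (SE 0.22, adjusted p = 0.0463 by limma) was at the threshold and passed in 12 of 24 alternatives. Vim, the gene of the mesenchymal filament protein vimentin, was higher by 0.75 ± 0.51 in terminal end buds and by 0.705 ± 0.42 in ducts (SD, n = 6 each), and the difference was 0.049 (SE 0.23).

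The other 3 measured cell markers, Clec3b, Cd34 and Gsn, were lower than stroma in terminal end buds. Clec3b, which encodes tetranectin, ran from -2.40 to -0.67 with a median of -2.12 on terminal end bud arrays, and from -0.47 to 0.81 with a median of 0.11 on duct arrays, without overlap. Cd34, a sialomucin of fibroblast progenitors that endothelium carries too, ran from -1.60 to -0.39 with a median of -1.22 on terminal end bud arrays, and from -0.33 to 0.72 with a median of 0.29 on duct arrays, without overlap. The differences were -1.91 (SE 0.30, adjusted p = 0.000512) for Clec3b and -1.31 (SE 0.20, adjusted p = 0.000514) for Cd34 by limma. Gsn, the gene of the actin-severing protein gelsolin, was lower in terminal end buds by -1.08 ± 0.89 (SD, n = 6, adjusted p = 0.00323), the widest spread among the 33 genes, and averaged -0.33 ± 0.55 in ducts (SD, n = 6), a difference of -0.75 (SE 0.37) that did not pass.

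Set against each other, terminal end buds and ducts differed in 17 of the 33 genes, against 18.7% of all probes called either way. In terminal end buds 7 were higher, against 8.32% of all probes called higher, and 10 were lower, against 10.4% of all probes. The higher genes were Thbs2, Thbs1, Tnc, Pdgfrb, Thy1, Fn1 and Fbln2, and the lower ones Ogn, Clec3b, Dpt, Cd34, Col3a1, Thbs3, Lox, Sparc, Mfap5 and Bgn. The groups did not overlap for 2 higher genes, against 4.42% of all probes, and for 7 lower ones, against 5.79% of all probes, which makes 9 of 33 against 10.2% of all probes. The median difference over the 33 genes was -0.071, where that of all probes was 0.00033. Both structures share the stroma reference.

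The SD of the ratios over all probes was 0.54 to 0.64 on terminal end bud arrays and 0.38 to 0.48 on duct arrays. Quantile normalization, and likewise scaling to a common spread, left 4 genes higher and 11 lower, since Fn1, Fbln2 and Thy1 lost their calls and Postn gained one as lower. Turning on the variance trend and the robust fit together lost the same 3 genes. The calls of Pdgfrb as higher and of Ogn, Clec3b, Cd34, Col3a1, Thbs3 and Lox as lower held under all 24 alternatives for single genes. A minimum size of 1 on the log2 scale is not among these, and Pdgfrb, at 0.79, lies below it. Arrays up to 193 alone gave 1 higher and 7 lower gene, and those from 196 on 6 and 11.

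**Figure D3:**
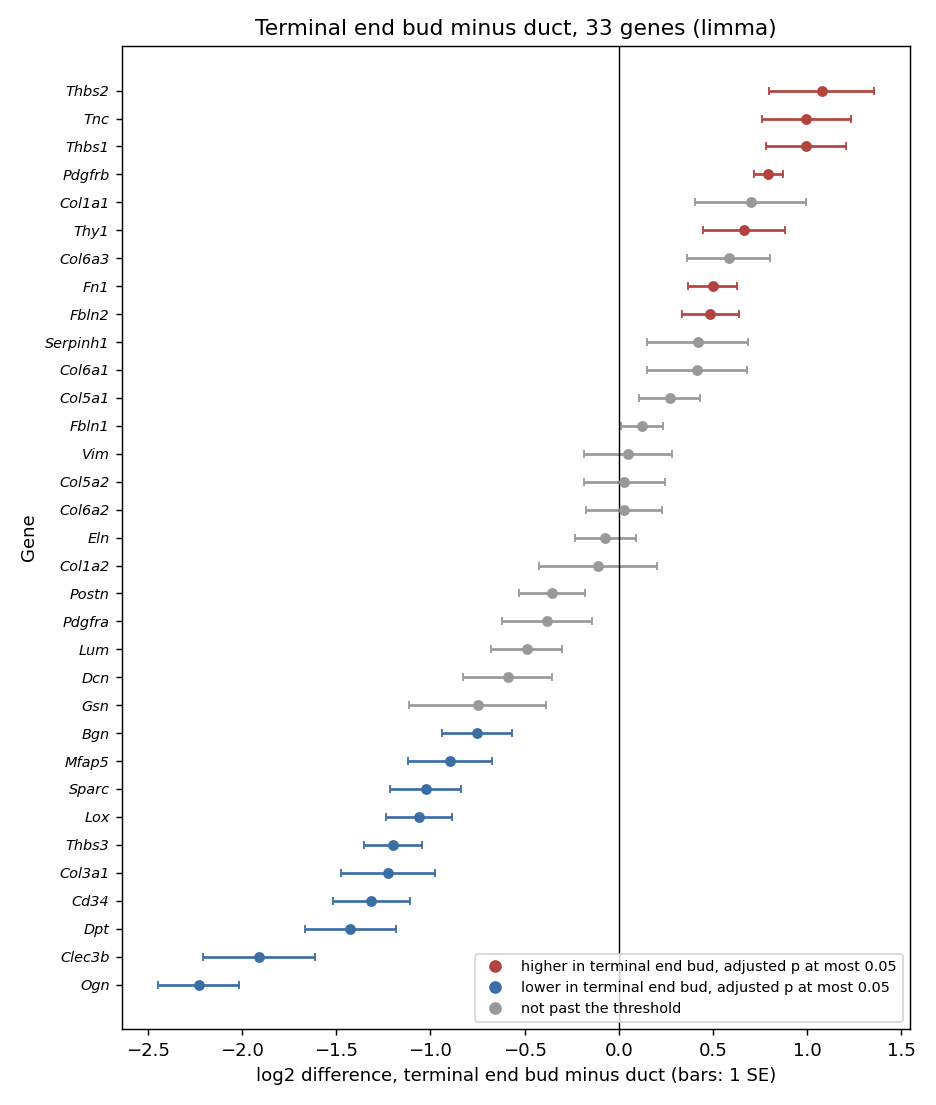
Log2 difference, terminal end bud minus duct, of the 33 genes (rows, ordered by the difference) with bars of 1 SE from the limma fit. Genes coloured as higher run from Fn1 and Fbln2 near 0.5 to Thbs2 at 1.08, and genes coloured as lower from Bgn at -0.75 to Ogn at -2.23.

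Other matrix genes, taken from 3 further lists, were also examined. Their counts stand against the shares of all probes given above, 23.2% higher and 20.4% lower in terminal end buds, 16% higher and 12.2% lower in ducts, and 8.32% higher and 10.4% lower between the structures. Of 20 genes of collagen folding and processing, 10 were higher and 4 lower than stroma in terminal end buds, and 9 higher and 3 lower in ducts. The lower counts were near the shares of all probes. Plod1 was lower in ducts by the probe used (-0.17) and had no call in terminal end buds (0.14). Its second probe had no call in ducts (-0.04) and was higher in terminal end buds (0.40). P4hb, a subunit of prolyl 4-hydroxylase and a disulfide isomerase, was higher by 1.37 (SE 0.14) in terminal end buds and by 1.21 in ducts. Loxl2, a lysyl oxidase relative, was higher by 1.33 (SE 0.11) in terminal end buds, where Lox itself was lower, and exceeded its duct ratio by 0.92 (SE 0.16, adjusted p = 0.00102 by limma). Ppib, a prolyl isomerase that acts on procollagen, was higher by 1.18 in terminal end buds and by 0.67 in ducts, a difference of 0.50 (SE 0.11, adjusted p = 0.00446 by limma). Sparcl1, a matricellular relative of Sparc and no processing enzyme, was lower by -1.24 (SE 0.18) in terminal end buds, and Tmem38b, an ion channel of the endoplasmic reticulum, was lower by -1.05 in terminal end buds and by -0.64 in ducts, a difference of -0.41 (SE 0.11, adjusted p = 0.019 by limma). Between the structures 5 genes were higher in terminal end buds and 2 lower, among them P3h1, a collagen prolyl 3-hydroxylase, by 0.56 (SE 0.10), and Pcolce2, an enhancer of procollagen cleavage, by -0.90 (SE 0.19).

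Of 10 other interstitial collagen genes, 5 were higher than stroma in each structure. Col14a1, counted in both, read 0.62 in terminal end buds and 0.39 in ducts, with no call for the difference. Its second probe had no call in terminal end buds (0.18, adjusted p = 0.112) and read 0.72 in ducts. By that probe Col14a1 was lower in terminal end buds than in ducts, by -0.54 (adjusted p = 0.00783 by limma). Col5a3 was higher by 1.48 (SE 0.17), Col16a1 by 1.26 (SE 0.098) and Col2a1 by 0.78 (SE 0.18) in terminal end buds. In ducts Col16a1 was higher by 1.57, Col8a1 by 1.02 and Col11a1 by 0.83. The terminal end bud ratio was 0.66 for Col8a1 and 0.37 for Col11a1, the last with no call, and none of these 3 differences passed. The ratio was higher in terminal end buds than in ducts for Col2a1, by 0.89 (SE 0.25), and for Col5a3, by 0.88 (SE 0.24).

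Of 37 other interstitial matrix genes, 15 were higher and 9 lower than stroma in terminal end buds, and 14 were higher in ducts. The lower count in terminal end buds was near the share of all probes. Vcan, the gene of the large hyaluronan-binding proteoglycan versican, was higher by 2.46 (SE 0.17) in terminal end buds and by 0.85 in ducts, a difference of 1.60 (SE 0.24, adjusted p = 0.00039 by limma). A second Vcan probe read 0.49 in terminal end buds and 0.0075 in ducts, a difference of 0.48 that did not pass (adjusted p = 0.0782). Fbn2, the gene of the developmental microfibril protein fibrillin-2, was higher by 1.81 (SE 0.11) in terminal end buds. The genes with the largest duct ratios were Fmod, at 0.96 in terminal end buds and 1.23 in ducts, Mfap4, at 0.43 and 1.22, and Ccn2, at 1.36 and 1.11. Of these 3, the difference passed for Mfap4 (-0.79, SE 0.18, adjusted p = 0.00661 by limma) and not for Fmod (adjusted p = 0.306) or Ccn2 (adjusted p = 0.367). Aspn, a leucine-rich proteoglycan related to decorin, was lower than stroma in terminal end buds by -1.54 (SE 0.20) and lower than in ducts by -1.25 (SE 0.28), and Efemp1, the gene of fibulin-3, was lower than in ducts by -1.51 (SE 0.25). Set against ducts, 6 of the 37 had higher and 9 had lower ratios in terminal end buds.

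Markers of other cells moved with the structures too. All 7 endothelial markers, among them Pecam1, were lower than stroma in terminal end buds and 5 of the 7 in ducts, and the list's median ran from -1.58 to -0.92 over terminal end bud arrays and from -0.71 to -0.18 over duct arrays. Of 9 adipocyte markers, 8 were lower in terminal end buds and 4 in ducts, with list medians from -1.82 to -0.51 and from -0.55 to -0.24. Of 7 pericyte markers, 5 were lower and 2 higher in terminal end buds, and 2 lower and 2 higher in ducts. Pdgfrb, which pericytes also carry, was not among these 7. Probes of a gene disagreed in size for Rgs5, a pericyte marker, at -0.54 for the probe used and -2.71 for the other in terminal end buds, and for Lipe, an adipocyte lipase, at 0.021 and -1.54. Of 6 myoepithelial and smooth muscle markers, 4 were higher in terminal end buds and all 6 in ducts, with list medians from 0.85 to 1.23 and from 1.70 to 2.55. All 7 epithelial markers were higher in both structures, with list medians from 3.46 to 5.29 and from 3.20 to 4.09. Of 8 macrophage and leukocyte markers, 1 was higher and 2 were lower in terminal end buds, and 1 was higher and 1 lower in ducts. These counts were near or below the shares of all probes, and none of the 8 was called between the structures. All 3 nerve sheath markers were lower in terminal end buds and 1 in ducts. Set against ducts, 6 of the 7 endothelial and 6 of the 9 adipocyte markers were lower in terminal end buds. So were 4 of the 7 pericyte and 1 of the 3 nerve sheath markers. Of the myoepithelial and smooth muscle markers 1 was higher and 4 were lower, and of the epithelial markers 2 were higher and 1 lower. The part of these cell types in the ratios of the matrix genes was not tested, and fewer cells of a type cannot be told apart from less RNA per cell in such dissected tissue.

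High and low ratios of many members fell on the same arrays. Terminal end bud replicate 2 had the highest terminal end bud ratio for 22 of the 33 genes, where 15.4% of all probes were highest on that array, and duct replicate 2 had the highest duct ratio for 24 of the 33, where 18.4% of all probes were highest on it. These arrays carry the neighbouring numbers 192 and 193. The lowest ratio fell on terminal end bud replicate 3 for 16 genes and on replicate 5 for 12, and on duct replicate 6 for 13 and replicate 3 for 11. The shares of all probes lowest on these arrays were not computed, so these counts have no background to be read against. The fibrillar collagen median was 1.22 on terminal end bud replicate 2, where the other 5 arrays had 0.021 to 0.67, and the adipocyte median was -0.51 on it, where the others had -1.82 to -1.43. On duct replicate 2 the proteoglycan median was 0.94, where the other duct arrays had 0.12 to 0.47, and its adipocyte median of -0.475 lay within the range of the duct arrays. The macrophage and leukocyte median was 0.54 on terminal end bud replicate 2, where the others had -0.82 to -0.13, and 0.36 on duct replicate 2, where the others had -0.49 to 0.053. The part of these cells in the high ratios on both arrays was not tested. Leaving out both arrays gave 17 higher and 9 lower genes in terminal end buds against stroma, 15 higher and 1 lower in ducts against stroma, and 8 higher and 11 lower in terminal end buds against ducts.

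**Figure D4:**
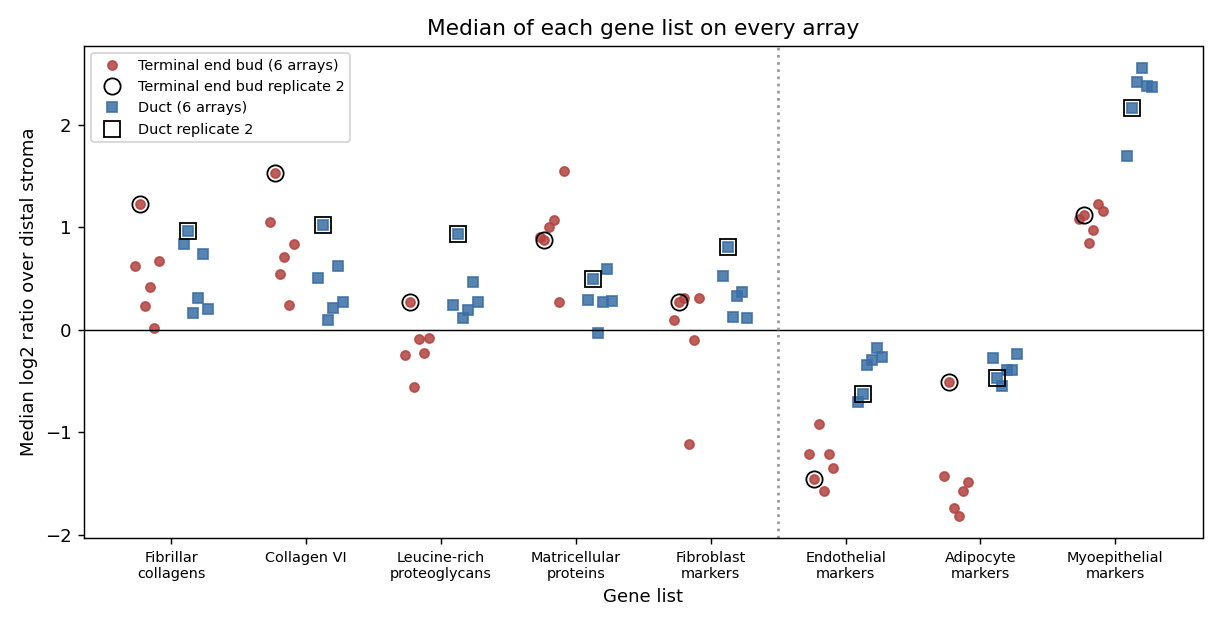
Median log2 ratio over distal stroma (y axis) on each terminal end bud array (circles) and duct array (squares), with replicate 2 of each group outlined. The x axis holds 5 groups of members, the last being the fibroblast cell markers, and, right of the dotted line, 3 marker lists of other cells. Replicate 2 has the highest collagen and proteoglycan medians of its group, and the terminal end bud medians of the endothelial list lie below all duct medians.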

How the data were processed

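Expression was measured on 12 two-colour arrays, 6 of terminal end buds and 6 of ducts, each against distal stroma, with groups taken from the labels and replicates numbered in the order of the records. The authors deposited 1 table of normalized ratios, used as log2 ratios of Cy5 over Cy3 as deposited. The scanning and normalization steps, not given in the sources used here, may affect the ratios. Base 2 was inferred from the size of the values. A natural logarithm is possible and would change sizes but no sign, order or p-value. The labelled dyes set the direction. The median ratio of an array was 0.01 to 0.023, and 129 of the 17589 probes lacked 1 value.

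Gene names came from the platform annotation, in which 14136 probes had 1 gene symbol, 13 several and 3440 none here. A gene was read from the probe with most values, then the first. limma 3.58.1 in R 4.3.3 fitted 2 group means over the 12 arrays to all probes with at least 4 values a group, and eBayes tests were two-sided. The fit was tested on simulated data. The number of arrays limits the precision. All 33 measured members were named. Of the further lists, up to 3 genes with the largest change past the threshold in each comparison were. Members and lists were chosen with earlier results of these data known. Alternatives covered normalization, filters, variance models, array weights, array numbers as a block or split, each group alone, a gene's probes, a minimum size, and each array left out. The minimum size entered the counts of genes and not the tallies of alternatives for single genes. Leaving out arrays 192 and 193 together was chosen after seeing the data.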

Additional observations from a re-analysis of the deposited data

Results flagged for a closer look

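Terminal end bud and duct effects against the same stroma differed by limma for 17 of the 33 genes, against 18.7% of all probes. The terminal end bud minus duct differences were -2.23 for Ogn, -1.91 for Clec3b, -1.43 for Dpt, -1.31 for Cd34, -1.22 for Col3a1, -1.20 for Thbs3, -1.06 for Lox, -1.03 for Sparc, -0.90 for Mfap5 and -0.75 for Bgn. For higher genes they were 1.08 for Thbs2, 0.996 for Thbs1, 0.996 for Tnc, 0.79 for Pdgfrb, 0.67 for Thy1, 0.498 for Fn1 and 0.49 for Fbln2.

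Single arrays stood far from the other 5 of their group, past Dixon's critical value for 6 values, in 7 of 66 groups of values. The nominal rate for independent groups is about 1 in 20, but the 33 genes share the same 12 arrays. The share of all probes past this value was not computed, so the count has no background to be read against. On terminal end bud arrays the values past it were Col1a2 at 1.22 and Mfap5 at 0.79 on replicate 2 and Lox at -1.25 on replicate 5. On duct arrays they were Dcn at 1.76 on replicate 2, Fn1 at 0.85 on replicate 4, Pdgfrb at 0.87 on replicate 5 and Gsn at -1.42 on replicate 6.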

How the results depend on the processing

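Over 2442 recomputed values of single genes, 2267 kept their direction and side of the threshold, 77 lost and 38 gained a call, 60 without a call changed sign, and none with a call did. Against stroma, 14 of 18 higher and 6 of 8 lower genes of terminal end buds passed under all 25 alternatives for single genes. The same held for 7 of 18 higher genes of ducts. These 25 leave out the minimum size. With each array left out, higher and lower genes numbered 17 to 18 and 8 to 9 in terminal end buds, 12 to 19 and 0 to 1 in ducts, and 5 to 9 and always 10 between the structures. In ducts 1 gene, Dpt, was lower after centring, quantile normalization, scaling to a common spread, array weights, the block, arrays from 196 on, each group alone and without arrays 192 and 193. Arrays from 196 on gave 11 higher genes in ducts. Between the structures 4 were higher under quantile normalization, a common spread, or the variance trend and robust fit together, and 1 on arrays up to 193, which are 2 arrays a group. A minimum size of 1 on the log2 scale left 10 higher and 6 lower genes in terminal end buds, 3 and 0 in ducts, and 1 and 8 between the structures. Of all 17589 probes, it left 657 higher and 612 lower in terminal end buds, 318 and 106 in ducts, and 175 and 244 between the structures. The labels number no replicates and name no pairs. With the 6 couples of neighbouring array numbers as a block, 9 genes were higher and 12 lower between the structures, with Col1a1 and Col6a3 added as higher and Dcn and Lum as lower. The causes of these changes were not tested. Signal over background was not analysed here.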
